A study of Capra hircus with 4 samples.

Results

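A set of 10 genes that supply cells with amino acids and their products was followed across the cell types of the goat pancreas: the enzymes GATM, PHGDH, PSAT1, PSPH, SHMT2 and ASNS and the transporters SLC1A5, SLC7A2, SLC7A8 and SLC3A2. They were taken by their symbols, all 10 were present, and they are 10 of the 27137 genes in the deposited table. The tissue was the whole pancreas of twin female Liuyang black goats (Capra hircus), 2 of them 6 months old, when goats ruminate, and 2 of them 10 days old, before rumination, with no treatment and no genetic change in either group. The tissue was dissociated, red blood cells were lysed, dead cells were taken out, and the remaining cells were captured in droplets and their mRNA counted by its 3′ end as unique molecular identifiers (UMIs). The 4 libraries carry only a number from 1 to 4 that no label ties to an animal, so no age is given to any library, the ages were not compared, and no test was run. The ratios below set cell classes against each other within a library, and the 4 libraries are given by their own values. Orders of the classes use medians over the libraries with at least 20 cells of a class, which are not the same for every class. Acinar clusters are also compared between libraries.

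The acinar cell makes and secretes digestive enzymes at a rate that places it among the most active protein-making cells of the body, and it draws on transported and newly made amino acids to do so. Serine is made from a glycolytic intermediate in sequence by PHGDH, PSAT1 and PSPH, and SHMT2 turns it into glycine and folate-bound carbon in mitochondria. ASNS makes asparagine, and GATM makes guanidinoacetate, the precursor of creatine, from arginine and glycine, a step long known to be active in the pancreas. Islet cells use amino acids as signals as well as building blocks, since arginine and other amino acids stimulate the release of insulin and glucagon. SLC1A5 exchanges glutamine and other small neutral amino acids with sodium, SLC7A2 carries arginine and lysine, and SLC7A8 is a light chain that exchanges neutral amino acids once it is paired with the heavy chain SLC3A2.

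In all, 13139 cells were kept, with 2813, 3247, 3996 and 3083 cells in libraries 1 to 4. Acinar-like cells numbered 374, 1257, 848 and 70, ductal-like cells 58, 143, 220 and 11, and endocrine-like cells 678, 621, 910 and 649. The names rest on marker genes: the 17 acinar markers found in the gene table summed to between 98452 and 331661 CPM (counts scaled to a total of 1e+06 per class and library) in acinar-like cells and to between 857 and 3132 CPM in endocrine-like cells, and the 15 endocrine markers to between 47.9 and 136 CPM in acinar-like cells and between 14317 and 24546 CPM in endocrine-like cells. The libraries stood apart. Acinar-like cells made up between 2.27% (library 4) and 38.7% (library 2) of a library, and immune-like cells between 0.986% (library 2) and 26.4% (library 4). The acinar-like cells of libraries 1 and 4 fell almost wholly into 1 cluster (372 and 64 cells) and those of libraries 2 and 3 into others, the beta-like cells split in the same way, and stellate/fibroblast-like and ductal-like clusters were also mostly of 1 or 2 libraries. The 10 leading genes held between 51.8% and 64.2% of all UMIs of acinar-like cells and between 30.1% and 51.1% of those of endocrine-like cells. In ductal-like cells of libraries 1 to 3 they held between 9.24% and 12.1%. The median gene was lower in acinar-like cells, with a log2 ratio of -1.53 over endocrine-like cells and -1.79 over ductal-like cells. Whether the leading genes account for this was not tested. Each gene is given both as CPM of all counts and relative to the median gene. Only 16 barcodes occurred in more than 1 library.

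Of the 10 genes, 7 were called between acinar-like and endocrine-like cells. GATM, PHGDH, PSAT1 and SLC1A5 were higher in acinar-like than in endocrine-like cells, and SLC7A2, SLC7A8 and SLC3A2 were lower. A gene was called where the log2 ratio of log2(CPM + 1) values was at least 1, or at most -1, in every library with 20 cells of both classes. The class with the higher CPM of all counts also had to hold 20 counts or more, including for calls relative to the median gene. Of the 9 genes with enough counts, 4 were called higher and 3 lower, against 1.1% of all genes called higher and 44.3% called lower by the same rule. The share called lower is thus near the background and the share called higher is above it. The genes were chosen with earlier results of these data known, so that these shares only describe the genes chosen. Relative to the median gene of each library, 6 were called higher, with SHMT2 and ASNS added, and 2 lower, with SLC3A2 dropped, against 5.82% of all genes called higher and 8.3% called lower in this way. The median log2 ratio of the 9 genes was 1.34, beside -1.53 for all 10223 genes with enough counts.

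**Figure D1:**
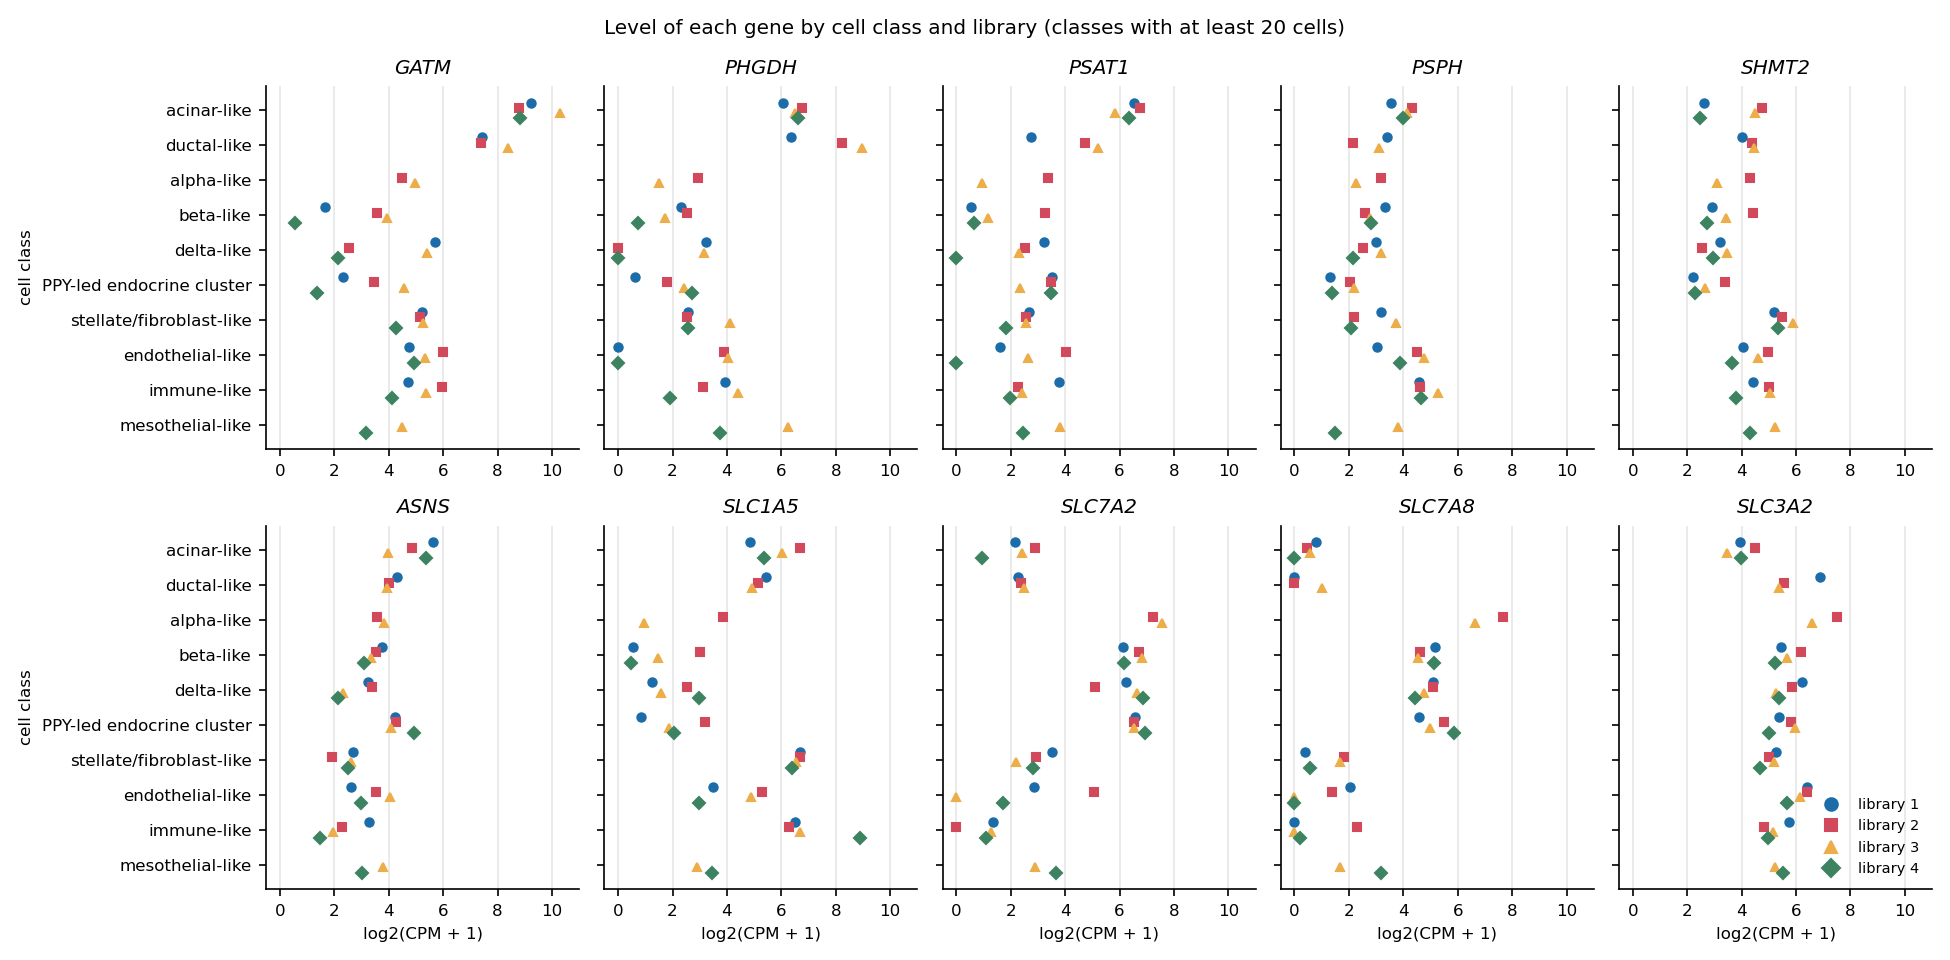
Level of each of the 10 genes, as log2(CPM + 1) on the horizontal axis, in 10 cell classes with at least 20 cells in a library, 1 point per library. GATM, PHGDH and PSAT1 stand to the right in the acinar-like or ductal-like rows, SLC7A2 and SLC7A8 in the endocrine rows, and SLC1A5 is high in acinar-like, stellate/fibroblast-like and immune-like cells.

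GATM was the gene with the greatest difference. It had 597, 445, 1267 and 451 CPM in acinar-like cells of libraries 1 to 4, against 6.07, 11.8, 21.0 and 0.662 CPM in endocrine-like cells. The groups were far apart in all 4 libraries, with the highest acinar-like level in library 3. The log2 ratio of acinar-like over endocrine-like cells had a median of 6.13 and ranged between 5.12 and 8.09. Among all classes ductal-like cells came second, with 173, 165 and 329 CPM in libraries 1 to 3, and the ranges of acinar-like and ductal-like cells did not overlap. The next 3 classes, stellate/fibroblast-like, endothelial-like and immune-like cells, had medians of 35.3, 34.3 and 32.8 CPM and overlapping ranges, and beta-like cells came last with a median of 6.51 CPM. GATM RNA was also abundant outside cells: barcodes with 10 to 100 UMIs, which hold mostly free RNA, carried 275, 310, 565 and 26.4 CPM. The endocrine-like level followed the same order of libraries as this free RNA, lowest in library 4 and highest in library 3. With the free RNA profile subtracted at 10% of each class's counts, no GATM was left in endocrine-like cells of any library. The 10% was a chosen setting, not estimated from the data, and whether the GATM of endocrine-like cells was free RNA was not tested. The median log2 ratio was then 9.08, against 6.13 without the subtraction. The value of 9.08 thus rests on the 1 CPM added to each level and measures no larger difference.

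GATM was found in nearly every acinar-like cell. The share of cells with a GATM UMI was 97.9%, 97.9%, 99.9% and 94.3% in acinar-like cells and 65.5%, 60.8% and 72.7% in ductal-like cells of libraries 1 to 3. In endocrine-like cells it was 5.16%, 9.02%, 13.2% and 1.23%. With every cell thinned to 3000 UMIs the shares were 81.7%, 71.3%, 95.3% and 73.4% in acinar-like cells and 1.52%, 2.85%, 5.08% and 0.356% in endocrine-like cells. The classes were thus as clearly apart at equal depth. Before thinning the median UMI count per cell was between 7632 and 19561 in acinar-like cells and between 8281 and 17062 in endocrine-like cells. Of the other genes of creatine handling, GAMT, which methylates guanidinoacetate to creatine, was higher in acinar-like cells, with 164, 252, 302 and 197 CPM against 36.3, 63.1, 53.0 and 35.2 CPM in endocrine-like cells. SLC6A8, the creatine transporter, was lower in acinar-like cells, with 4.19, 5.80, 4.84 and 0.921 CPM against 43.7, 90.8, 63.1 and 80.4 CPM in endocrine-like cells. The median log2 ratios were 2.30 for GAMT and -3.60 for SLC6A8, and both kept their call relative to the median gene.

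The first 2 enzymes of serine synthesis were high on the exocrine side. PHGDH, which commits the glycolytic intermediate to serine, had 66.3, 107, 89.0 and 96.7 CPM in acinar-like cells, against 2.16, 4.25, 3.36 and 1.16 CPM in endocrine-like cells. Its log2 ratio had a median of 4.39 and a range between 4.36 and 5.50. PSAT1, the transaminase of the pathway, had 92.6, 108, 55.3 and 80.2 CPM in acinar-like cells, against 6.95, 8.99, 2.47 and 1.57 CPM in endocrine-like cells. Its median log2 ratio was 3.79, with a range between 3.45 and 4.98. For both genes every acinar-like value lay above every endocrine-like value. After thinning, a PHGDH UMI was found in 18.0%, 24.8%, 21.7% and 24.8% of acinar-like cells and in at most 1.12% of endocrine-like cells, and a PSAT1 UMI in 25.9%, 27.0%, 15.5% and 19.2% of acinar-like cells and in at most 2.06% of endocrine-like cells.

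PHGDH and PSAT1 parted company in ductal-like cells. PHGDH had 66.3, 107 and 89.0 CPM in acinar-like cells of libraries 1 to 3, against 81.7, 301 and 501 CPM in ductal-like cells, so that ductal-like cells stood first in its order, with a median of 301 CPM against 92.9 CPM over all 4 libraries of acinar-like cells and overlapping ranges. PSAT1 had 92.6, 108 and 55.3 CPM in acinar-like cells of these libraries, against 5.70, 25.6 and 35.9 CPM in ductal-like cells, and acinar-like cells stood first. The log2 ratio of acinar-like over ductal-like cells was -0.30, -1.48 and -2.48 for PHGDH and 3.8, 2.04 and 0.61 for PSAT1. Neither gene was called, since 1 library of each stayed within a log2 ratio of 1: library 1 for PHGDH and library 3 for PSAT1. In library 1 ductal-like cells held only 3 PSAT1 UMIs, and the ratio was 16.3 with a 95% counting interval between 5.52 and 79.2. All ductal-like cells of library 1 lay in a cluster led by PIGR and LGALS2, and 132 of 143 and 205 of 220 in libraries 2 and 3 in another, led by MMP7 and TFF3. Relative to the median gene PSAT1 was called higher in acinar-like cells, and PHGDH changed sign to a median of 0.23, with a range between -0.98 and 2.73. Mesothelial-like cells came next for PHGDH, with 75.5 and 12.5 CPM in libraries 3 and 4, where the class had enough cells.

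PSPH, the phosphatase that releases serine in the last step, had 10.6, 18.7, 16.7 and 14.7 CPM in acinar-like cells, against 4.31, 4.91, 4.82 and 5.55 CPM in endocrine-like cells. All 4 log2 ratios were above 1, with a median of 1.43, but library 4 had only 16 PSPH counts in acinar-like cells, under the minimum of 20, so that the gene was not called. It was called higher with no count minimum and without library 4. Its highest class was the immune-like one, with 22.8, 23.2, 37.4 and 23.8 CPM, whose range overlapped that of endothelial-like cells (between 7.22 and 25.96 CPM), which overlapped that of acinar-like cells. The lowest was the endocrine cluster led by PPY and GAST, with a median of 2.36 CPM.

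SHMT2 was highest in stellate/fibroblast-like cells, with 35.9, 43.3, 58.8 and 39.1 CPM. That range overlapped the mesothelial-like one (18.8 and 36.7 CPM in libraries 4 and 3) and lay above the immune-like one (between 12.9 and 31.6 CPM). In acinar-like cells SHMT2 had 5.17, 26.1, 21.5 and 4.61 CPM, against 4.95, 16.8, 7.84 and 5.63 CPM in endocrine-like cells. The acinar-like level split by library, low in 1 and 4 and high in 2 and 3, along the same line as the acinar clusters. The log2 ratio had a median of 0.33 and ranged between -0.24 and 1.34, and SHMT2 was not called, while relative to the median gene it was called higher in acinar-like cells, with a median of 2.00. That call rests on only 21 and 5 SHMT2 UMIs in acinar-like cells of libraries 1 and 4. In library 4 the count minimum was met by the 68 UMIs of endocrine-like cells, which had the higher CPM.

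ASNS was highest in acinar-like cells by its median but varied between libraries. It had 48.5, 27.8, 14.6 and 40.5 CPM in acinar-like cells, against 15.4, 12.6, 12.0 and 9.85 CPM in endocrine-like cells. Acinar-like cells were higher in each library, by log2 ratios of 1.59, 1.08, 0.27 and 1.94, but library 3 lay under 1, so that ASNS was not called. It was called higher relative to the median gene and with library 3 left out. Libraries 1 and 4 were the high ones, the reverse of SHMT2. The endocrine cluster led by PPY and GAST came second, with 17.8, 18.3, 16.1 and 29.1 CPM, and its range overlapped that of acinar-like cells. In the other islet classes the medians were 11.9 CPM in alpha-like, 9.88 CPM in beta-like and 6.16 CPM in delta-like cells.

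**Figure D2:**
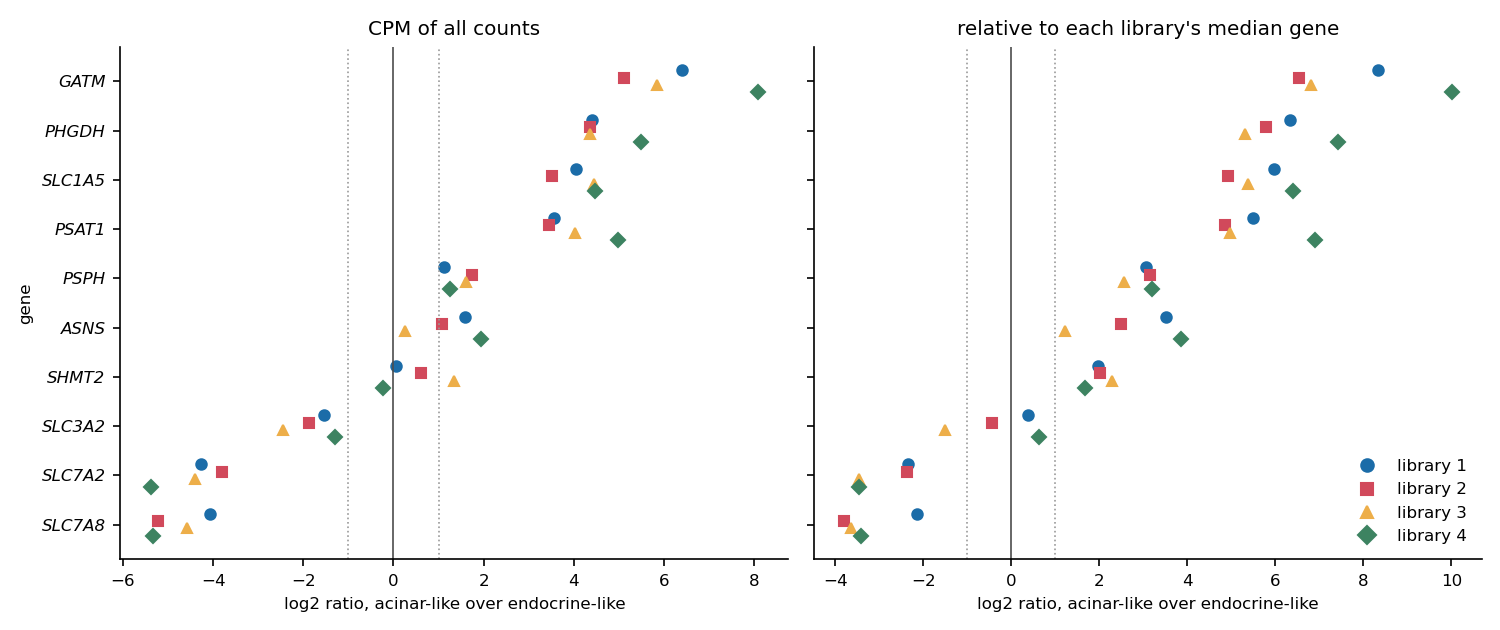
Log2 ratio of acinar-like over endocrine-like cells for each gene, 1 point per library, from CPM of all counts (left) and relative to the median gene of each library (right), with dotted lines at -1 and 1. GATM, PHGDH, SLC1A5 and PSAT1 lie right of 1 and SLC7A2 and SLC7A8 left of -1 in both panels, while the SLC3A2 points lie left of -1 for all 4 libraries in the left panel and for library 3 alone in the right one.

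SLC1A5, the glutamine exchanger, was higher in acinar-like than in endocrine-like cells but was not an acinar gene alone. It had 27.6, 102, 64.5 and 39.6 CPM in acinar-like cells, against 0.719, 8.01, 2.02 and 0.828 CPM in endocrine-like cells. The log2 ratio had a median of 4.25 and ranged between 3.51 and 4.47. Stellate/fibroblast-like cells stood as high or higher, with 101, 103, 91.6 and 83.5 CPM, and immune-like cells had 89.4, 77.3, 101 and 470 CPM. The high value of library 4 came with its large number of cells in 1 immune cluster, led by FCN1 and S100A8 and named macrophage/myeloid-like, which held 34, 3, 21 and 408 cells. This cluster was marked by a share of 0.93 of the macrophage/myeloid markers but also by 0.82 of the neutrophil markers. In that cluster SLC1A5 had 464, 427 and 852 CPM in libraries 1, 3 and 4, while the other macrophage/myeloid-like cluster, led by C1QC, C1QB and C1QA, had 30.3, 27.6 and 36.9 CPM. A SLC1A5 UMI was found in 59.0%, 69.3% and 80.9% of thinned cells of the FCN1-led cluster and in 4.82%, 7.35% and 8.16% of the other. The lowest classes for SLC1A5 were all endocrine, with medians of 7.21 CPM in alpha-like, 3.38 CPM in delta-like, 2.90 CPM in the PPY-led and 1.12 CPM in beta-like cells, and their ranges overlapped.

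SLC7A2 and SLC7A8 marked the endocrine side. SLC7A2, the cationic amino acid carrier, had 3.45, 6.49, 4.35 and 0.921 CPM in acinar-like cells, against 84.7, 103, 112 and 79.3 CPM in endocrine-like cells. SLC7A8, the neutral amino acid light chain, had 0.739, 0.391, 0.495 and 0 CPM in acinar-like cells, against 28.4, 50.9, 34.9 and 39.2 CPM in endocrine-like cells. The groups were far apart for both genes in all libraries. The median log2 ratio was -4.34 for SLC7A2, with a range between -5.39 and -3.79, and -4.90 for SLC7A8, with a range between -5.33 and -4.08.

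The acinar-like counts behind these ratios were small. SLC7A8 had 3, 12, 9 and 0 UMIs in acinar-like cells, and SLC7A2 had 14, 199, 79 and 1. In library 1 the SLC7A8 level of endocrine-like cells was 38.4 times that of acinar-like cells, with a 95% counting interval between 13.02 and 187 (exact, counting error only). In library 4 acinar-like cells held no SLC7A8 UMI. They were 14.2-fold lower when set at a floor of 3 counts in that library, and the counting interval of the ratio began at 11.5. For SLC7A2 in library 4, with 1 UMI in acinar-like cells, the ratio was 86.1 with an interval between 15.4 and 3404. Ductal-like cells were as low as acinar-like cells, with 3.8, 4.15 and 4.54 CPM of SLC7A2 and 0, 0 and 1.01 CPM of SLC7A8 in libraries 1 to 3, and neither gene had enough counts for a call between acinar-like and ductal-like cells. Outside the islet the highest median was that of mesothelial-like cells for both genes, 9.04 CPM for SLC7A2 and 5.10 CPM for SLC7A8, below the ranges of all 4 endocrine classes.

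SLC3A2, the heavy chain, was lowest in acinar-like cells. It had 14.3, 21.5, 9.96 and 14.7 CPM in acinar-like cells, against 43.7, 80.8, 58.9 and 37.4 CPM in endocrine-like cells. The median log2 ratio was -1.71, with a range between -2.45 and -1.29, and relative to the median gene it was -0.04, with a range between -1.50 and 0.63, and the call was lost. Library 3 was the lowest on both scales. The range in acinar-like cells, between 9.96 and 21.5 CPM, did not overlap that of any other class. Alpha-like cells stood highest, with a median of 139 CPM, followed by endothelial-like cells, with 77.3 CPM. Among endothelial-like cells the cluster led by PLVAP had 186, 105 and 92.0 CPM of SLC3A2 in libraries 1 to 3 and the cluster led by CCL21 and MMRN1 had 44.6, 51.5 and 32.9 CPM in libraries 1, 2 and 4.

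Set against ductal-like cells, the acinar-like cells stood out by GATM. This comparison asks which exocrine cell carries the genes that were high on the exocrine side, and libraries 1 to 3 had enough ductal-like cells. Of the 7 genes with enough counts, GATM was called higher in acinar-like cells and SLC3A2 lower, beside 1.98% of all genes called higher and 68.5% called lower. Relative to the median gene 5 were called higher (GATM, PSAT1, PSPH, SLC1A5 and ASNS) and none lower, beside 10.4% and 9.3% of all genes, and the median of SLC3A2 was 0.09, of the opposite sign to its -1.93 from all counts. The SLC3A2 call held in 9 of 14 alternatives, and was also lost with cells from 1000 UMIs, with each library clustered alone, with a pseudocount of 10 CPM and without the 10 leading genes. GATM had log2 ratios of 1.78, 1.43 and 1.94, and lost its call where each library was clustered on its own. Without library 1 the genes called were GATM, SLC1A5 and PSPH, 3 in all, as higher and SLC3A2 and PHGDH, 2 in all, as lower, and without library 3 GATM and PSAT1 were called higher. SLC1A5 was lower in acinar-like cells in library 1 and higher in libraries 2 and 3, with log2 ratios of -0.58, 1.56 and 1.11. ASNS had log2 ratios of 1.31, 0.83 and 0.05, and PSPH of 0.14, 2.15 and 1.04. These rest on 10, 22 and 28 ASNS UMIs and on 5, 5 and 15 PSPH UMIs in ductal-like cells. The ductal-like cells carried acinar marker RNA, which summed to 14457, 16222 and 16417 CPM in libraries 1 to 3, above the endocrine-like cells of the same libraries. In ductal-like cells with under 5% of UMIs in acinar enzyme genes, GATM was still at 171, 132 and 224 CPM, PHGDH at 83.3, 321 and 532 CPM and PSAT1 at 5.81, 19.7 and 34.7 CPM.

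**Figure D3:**
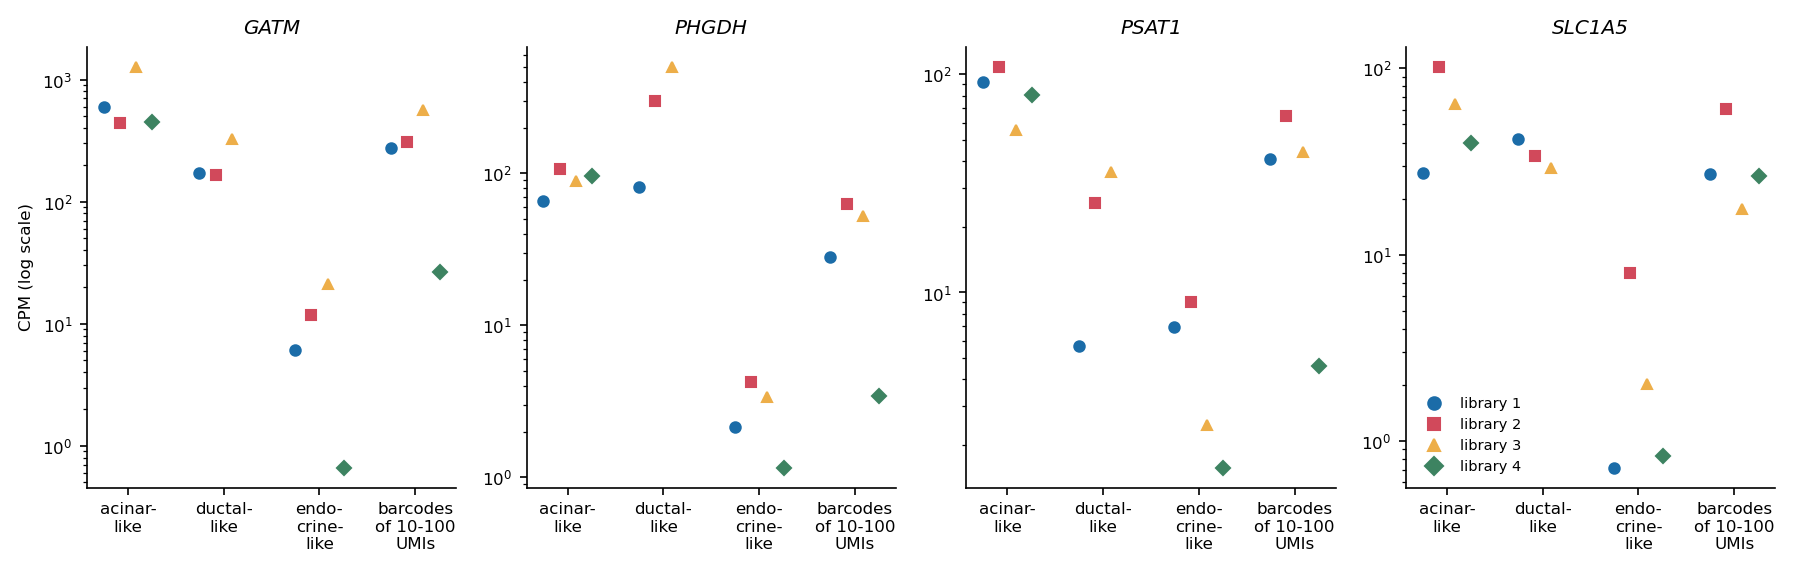
CPM on a log scale of GATM, PHGDH, PSAT1 and SLC1A5 in acinar-like, ductal-like and endocrine-like cells and in barcodes with 10 to 100 UMIs, 1 point per library (ductal-like cells of library 4 left out for having 11 cells). PHGDH is higher in ductal-like than in acinar-like cells of libraries 1 to 3, with only a small difference in library 1. The other 3 genes are lower in ductal-like cells, except SLC1A5 in library 1, which is higher.

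Within the acinar class GATM, PSAT1 and SLC1A5 differed more between libraries 2 and 3 than between the clusters of either. In library 2 the 4 acinar clusters with at least 20 cells had between 379 and 514 CPM of GATM, between 80.8 and 132 CPM of PHGDH, between 87.7 and 117 CPM of PSAT1 and between 89.6 and 114 CPM of SLC1A5. In library 3 the 4 such clusters had between 1045 and 1350 CPM of GATM, between 71.6 and 142 CPM of PHGDH, between 43.8 and 65.1 CPM of PSAT1 and between 52.8 and 65.9 CPM of SLC1A5. The 2 ranges overlapped for PHGDH alone. The 1 cluster that held nearly all acinar-like cells of libraries 1 and 4 had 48.4 and 42.3 CPM of ASNS, against at most 35.5 CPM in the other acinar clusters with at least 20 cells in a library, and 5.19 and 2.17 CPM of SHMT2, against at least 16.7 CPM in the others. The same cluster was led by genes without a name, followed by pancreatic enzyme genes such as CELA1, PNLIP and CTRC. The other 5 were led by CYM, PNLIPRP2 or genes without a name, and enzyme genes such as CEL and PRSS2 were among the leading genes of some. Library and cluster cannot be told apart for ASNS and SHMT2.

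Among the islet cells SLC7A8 and SLC3A2 were highest in alpha-like cells. Alpha-like cells, named by GCG, IRX2, TTR and 4 other markers, reached 20 cells only in libraries 2 and 3, with 86 and 114 cells. SLC7A8 had 201 and 98.9 CPM in alpha-like cells of these libraries, against 23.8 and 22.3 CPM in beta-like cells. The ratio was 8.45 (counting interval between 6.43 and 11.2) in library 2 and 4.43 (between 3.31 and 5.95) in library 3, and the median log2 ratio was 2.56. With all barcodes from 1000 UMIs kept and clustered anew, the median was 1.03 and SLC7A8 was not called. In libraries 1 and 4, with 9 and 10 alpha-like cells and so not part of the call, the levels were 127 and 338 CPM against 34.9 and 34.3 CPM in beta-like cells. After thinning, a SLC7A8 UMI was found in 42.4% and 24.5% of alpha-like cells of libraries 2 and 3 and in 7.09% and 6.92% of beta-like cells. Without thinning the shares were 72.1% and 52.6% in alpha-like, 19.9% and 17.9% in beta-like and 0.80% and 1.06% in acinar-like cells.

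SLC3A2, the partner of SLC7A8, had 182 and 95.2 CPM in alpha-like cells of libraries 2 and 3, against 72.7 and 50.0 CPM in beta-like cells. The log2 ratios were 1.31 and 0.92, so that SLC3A2 was not called. SLC7A2 had 148 and 188 CPM in alpha-like cells and 103 and 112 CPM in beta-like cells of these libraries, with log2 ratios of 0.52 and 0.74. For all 3 transporters the range of alpha-like cells lay above that of the class next in order, although for SLC3A2 ductal-like cells of library 1, at 116 CPM, exceeded alpha-like cells of library 3. Of the 4 genes with enough counts in this comparison, which was chosen after the levels in alpha-like cells had been seen, 1 was called higher and none lower in alpha-like cells, beside 3.5% of all genes called higher and 5.93% called lower. SHMT2, the other gene with enough counts, had log2 ratios of -0.11 and -0.36.

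**Figure D4:**
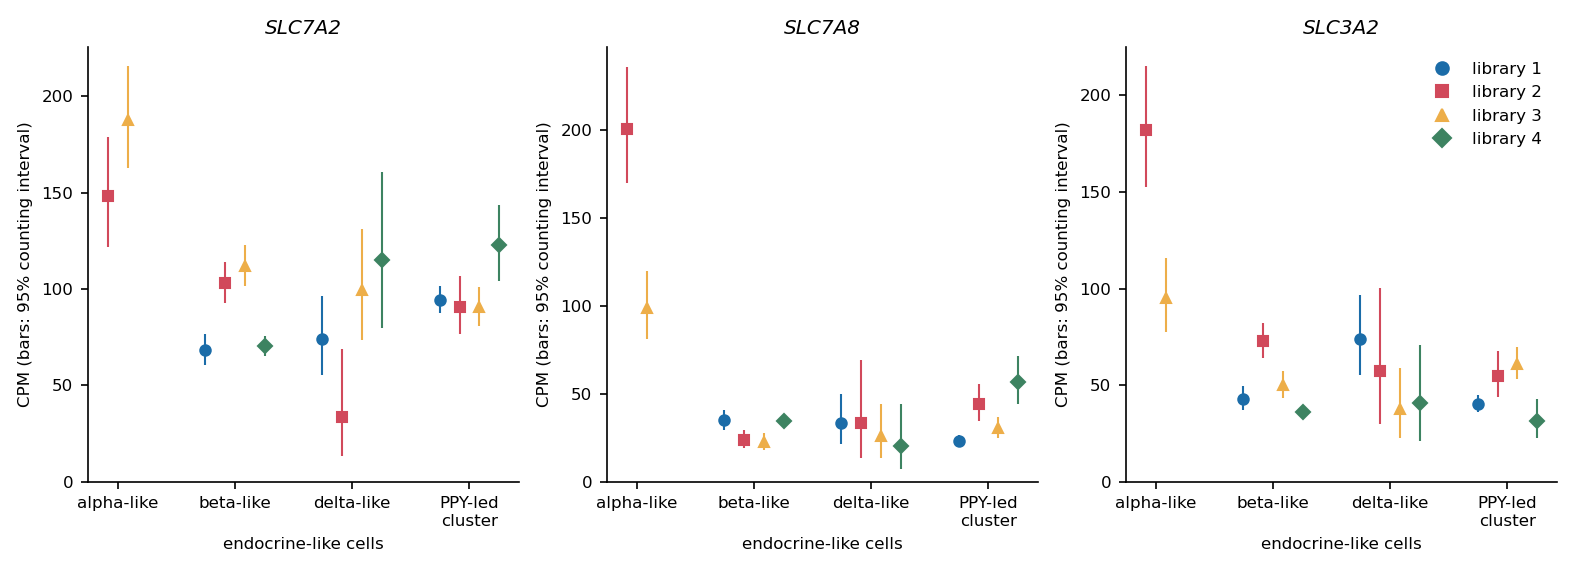
CPM of SLC7A2, SLC7A8 and SLC3A2 in alpha-like, beta-like and delta-like cells and in the endocrine cluster led by PPY, 1 point per library with at least 20 cells, with 95% counting intervals. The 2 alpha-like points lie above the others for SLC7A2 and SLC7A8, and the lower alpha-like point of SLC3A2 lies near the upper end of the delta-like intervals.

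Between beta-like and the other endocrine-like cells, 5 of the 10 genes had too few counts for a call. None of the 5 genes with enough counts was called higher or lower in beta-like cells, beside 2.33% of all genes called higher and 2.61% called lower. SLC7A2 had 68.2, 103, 112 and 70.4 CPM in beta-like cells, against 93.2, 103, 112 and 135 CPM in the other endocrine-like cells, so that libraries 2 and 3 had nearly equal levels and libraries 1 and 4 lower ones in beta-like cells. SLC7A8 had 34.9, 23.8, 22.3 and 34.3 CPM in beta-like cells, against 24.99, 89.0, 44.8 and 69.6 CPM in the others, and went the other way in library 1 alone. The median log2 ratio was -0.22 for SLC7A2, -0.99 for SLC7A8, -0.34 for SLC3A2, -0.54 for ASNS and 0.58 for SHMT2. Delta-like cells and the PPY-led cluster overlapped beta-like cells in all 3 of SLC7A2, SLC7A8 and SLC3A2. PSAT1, with too few counts for a call, had 0.472, 8.67, 1.27 and 0.577 CPM in beta-like cells, against 10.3, 9.45, 3.41 and 7.74 CPM in the other endocrine-like cells, and 79 of the 85 PSAT1 counts of non-beta endocrine-like cells in library 1 lay in the PPY-led cluster. Its log2 ratio was below 0 in all 4 libraries (between -2.94 and -0.11), and that of PSPH, also with too few counts, was above 0 in all 4 (between 0.08 and 1.77).

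The other amino acid genes were read from 9 lists of enzymes, transporters and stress-response genes, with 167 genes besides the 10. Between acinar-like and endocrine-like cells, 103 of them had enough counts, of which 6 were called higher and 27 lower, beside 1.1% and 44.3% of all genes, and relative to the median gene 26 higher and 7 lower, beside 5.82% and 8.3%. The share called lower was thus below that of all genes, and the share called higher above it. The lists too were chosen with earlier results of these data known, so that these shares only describe the lists. The 6 higher genes were NUPR1, a stress-response gene (median log2 ratio 5.77), MAT1A, which makes S-adenosylmethionine (4.91), GLS2, a glutaminase (3.55), GCAT, which cleaves a threonine product to glycine (2.38), GAMT (2.30) and ALDH1L2, a mitochondrial folate enzyme (2.15). The 10 with the lowest ratios were mostly transporters: SLC7A14 (-5.21), SLC38A4 (-5.05), SLC38A11 (-4.24), SLC6A8 (-3.60), SLC6A17 (-3.59), SLC6A6 (-3.22) and SLC43A2 (-3.13), with the mitochondrial enzymes ALDH4A1 of proline breakdown (-4.44), ARG2, an arginase (-3.33), and OAT, ornithine aminotransferase (-3.29). Of these 10, ARG2, OAT and SLC6A6 were not called relative to the median gene. The serine, glycine and folate enzymes had 2 of 8 higher and 2 lower besides the genes described above, and the sodium-coupled transporters had none of 16 higher and 8 lower, close to the 44.3% of all genes called lower. None of the 18 cytosolic aminoacyl-tRNA synthetases with enough counts was called, and relative to the median gene 7 were called higher, with a median log2 ratio of -0.05 beside -1.53 for all genes.

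**Figure D5:**
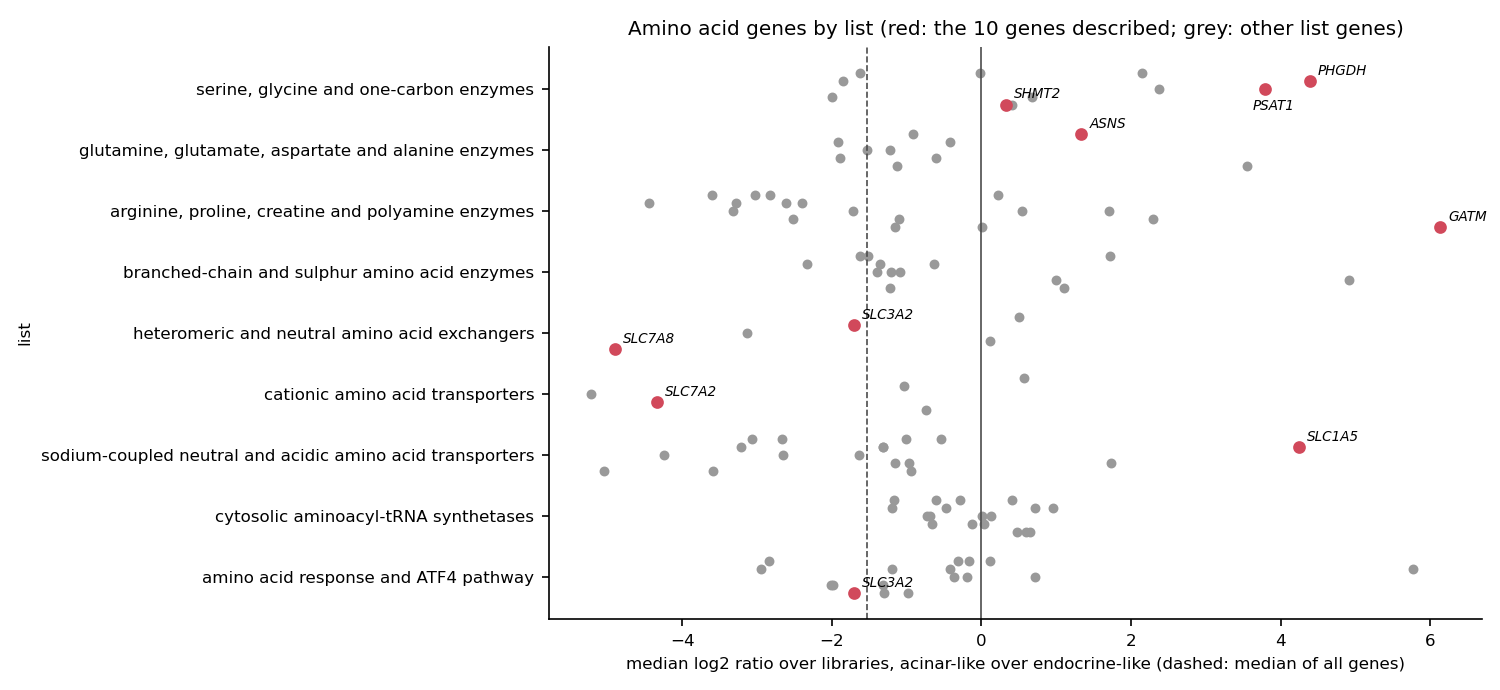
Median log2 ratio over libraries of acinar-like over endocrine-like cells for the genes of 9 lists with enough counts, with the genes described in red and the other list genes in grey; the dashed line marks the median of all genes. GATM, PHGDH, SLC1A5 and PSAT1 lie at the upper end of their lists, SLC7A8 and SLC7A2 at or near the lower end of theirs, and SLC3A2 beside the dashed line.

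Between acinar-like and ductal-like cells, 58 other list genes had enough counts, of which 10 were higher and 19 lower, beside 1.98% and 68.5% of all genes, and 28 higher and 3 lower relative to the median gene, beside 10.4% and 9.3%. The higher ones were ALDH1L2 (3.07), NUPR1 (2.83), GLS2 (2.79), MAT1A (2.39), the transporters SLC38A5 (2.31), SLC16A10 (1.53) and SLC7A5 (1.5), a light chain that also pairs with SLC3A2, then GCAT (1.43), SRM (1.33) and AHCY (1.17). SLC7A5 had 50.5, 72.3 and 38.3 CPM in acinar-like cells, against 7.60, 24.9 and 16.2 CPM in ductal-like cells, so that a light chain was higher where SLC3A2 was lower or, relative to the median gene, level. The 3 genes still lower relative to the median gene were SFXN1, a mitochondrial serine carrier (-5.23), DDAH2 (-4.73) and OAT (-4.37). SFXN1 had 2.96, 8.77 and 13.7 CPM in acinar-like cells, against 222, 367 and 336 CPM in ductal-like cells, the same class in which PHGDH was highest.

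Among islet cells 1 other list gene of 91 was called higher and 6 lower in beta-like cells, beside 2.33% and 2.61% of all genes. VLDLR, on the list of ATF4 response genes, was the 1 called higher (2.23), a call lost under 5 alternatives (cells from 1000 UMIs, the top 5% of doublet scores removed, libraries clustered alone, resolution 2 and a pseudocount of 10 CPM), and SLC38A11 (-5.27), SLC1A1 (-3.50), SLC38A5 (-2.16), NAGS (-2.01), BCKDHB (-1.83) and ARG2 (-1.83) were called lower. In alpha-like cells SLC38A11 had 59.3 and 67.2 CPM in libraries 2 and 3, against 0 and 1.01 CPM in beta-like cells, so that its log2 ratio rests on the pseudocount of 1 CPM. In alpha-like over beta-like cells 8 of 66 were called higher, namely SLC38A11 (5.50), ARG2 (2.33), SLC38A5 (2.17), SESN2 (1.72), GLUD1 (1.69), SLC6A8 (1.67), SLC16A10 (1.44) and DDAH2 (1.29), and 5 lower, namely SLC38A2 (-2.76), SLC25A15 (-2.27), VLDLR (-1.76), DDIT3 (-1.19) and HERPUD1 (-1.17), beside 3.5% and 5.93% of all genes. SLC38A5 is a sodium-coupled carrier of neutral amino acids, SLC38A11 is a member of the same family by name, and GLUD1 is glutamate dehydrogenase.

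Across 35 combinations of class and library, the genes most like each of the 10 in pattern were found by Pearson's correlation of log2(CPM + 1) among 11961 genes. The points share libraries, depth and class, so that the correlations only describe these profiles. GATM was most like SPINK1, CEL and SYCN (0.94, 0.93 and 0.92), acinar secretory genes, and PSAT1 was most like PTF1A, PDIA2 and SERPINI2 (0.83, 0.82 and 0.81), also of acinar cells. PHGDH was most like TCEA3, KCNQ1 and IL17RB (0.86, 0.84 and 0.83). SLC7A8 was most like LHFPL4, SCGN and CHGA (each 0.96), and SLC7A2 most like SYT4, STXBP5L and CPLX2 (0.95, 0.94 and 0.94), of which several serve regulated secretion. SHMT2 was most like GPX7, CRTAP and EIF4E2 (0.89, 0.87 and 0.87), SLC1A5 like ACSS1, SMIM3 and CTSC (0.85, 0.83 and 0.82), and SLC3A2 like TMEM14A, CYTH2 and CLTB (0.85, 0.82 and 0.82). ASNS and PSPH had the weakest likeness, at most 0.70 (TTC9B, AGXT and CPB1) and 0.72 (LRG1, RNASEH2B and SLC6A9). Between the 10 genes themselves GATM correlated with PHGDH at 0.77 and with PSAT1 at 0.72, and SLC7A2 with SLC7A8 at 0.90.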

How the data were processed

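Single-cell RNA sequencing (10x Genomics 3′ version 3) was made from the pancreas of 4 goats. The authors deposited 1 unfiltered matrix of UMI counts (73143416 entries, 247275915 UMIs) that joins the 4 libraries. Its header gives Cell Ranger 5.0.1, whereas Cell Ranger 3.1.0 and Seurat 3.1.1 appear in the submitters' processing notes, and the genome build is not given in the sources used here. All 10 genes matched RefSeq's table by ID, as did 27103 of 27137 IDs.

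The 8000 barcodes richest in UMIs were taken per library, and cells were barcodes above 1/10 of the 99th percentile of these (3417, 5525, 4189 and 3403 UMIs) with at least 500 genes. Scrublet in scanpy 1.11.5 marked 77 of 2890, 78 of 3325, 111 of 4107 and 4 of 3087 barcodes as doublets, which were removed; with so few marked in library 4, doublets may remain there. Cells were clustered jointly with the Leiden method (2000 variable genes, 30 components, resolution 1), without the genes described, the list genes and any correction between libraries. A cluster took a class name from at least 3 markers, by rules for the naming that were set after the clusters had been seen, so that classes may differ from those of the study. Counts were summed per class and library and scaled to CPM, and ratios are differences of log2(CPM + 1), which understates changes of low genes. The call rule was tested on simulated data. Intervals are exact at 95% and cover counting error only. All 10 genes are named; other list genes are named up to 10 per direction by size of the median ratio, and the 3 genes most like each of the 10. Alternatives changed the cell minimum, doublets, clustering, pseudocount, count minimum, scaling, weight of cells, free RNA and libraries. The members and lists were chosen with earlier results of these data known. Library totals were 43297855, 82817057, 65937591 and 55223412 UMIs. The edgeR comparison of ages planned from the labels was not run, since no library number names an animal. Analyses used Python 3.11.15, igraph 0.11.9, scipy 1.17.1, numpy 2.4.6 and pandas 2.3.3.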

Additional observations from a re-analysis of the deposited data

How the results depend on the processing

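No paired analysis was possible because, for the comparison of ages, the library numbers are tied to no animal, so that it and its replicate block were not run. The class comparisons set both classes of a library against each other, with no test over libraries that belong to no known group. Over 14 alternatives GATM, PHGDH and PSAT1 stayed called higher in acinar-like than in endocrine-like cells and SLC7A2 and SLC7A8 lower; SLC1A5 was called in 13, being lost with cells from 1000 UMIs (median 3.57), and SLC3A2 in 12, being lost with a pseudocount of 10 CPM and relative to the median gene. The other list genes called higher there, 6 in all, became 26 relative to the median gene, and the 27 lower became 7, or 12 with a pseudocount of 10 CPM. In acinar-like over ductal-like cells the 1 gene called higher became 0 with each library clustered alone, 3 without the 10 leading genes, 5 relative to the median gene and between 1 and 3 with 1 library left out. The 1 called lower, SLC3A2, became 0 with cells from 1000 UMIs, with each library clustered alone, with the larger pseudocount, without the leading genes and relative to the median gene, where its ratio was 0.0914, and the count was between 1 and 2 with 1 library left out. The other list genes higher there, 10 in all, became 6 from 1000 UMIs, 2 with libraries clustered alone, 3 with the larger pseudocount and 28 relative to the median gene, and the 19 lower became 11 from 1000 UMIs, 43 with no count minimum, 11 without the leading genes and 3 relative to the median gene. In beta-like over other endocrine-like cells the 1 list gene higher became 0 from 1000 UMIs, with the top 5% of doublet scores removed, with libraries clustered alone, at resolution 2 and with the larger pseudocount, and was 1 or 2 with a library left out, and the 6 lower became 3 from 1000 UMIs, 2 with libraries clustered alone and 3 at resolution 2. In alpha-like over beta-like cells SLC7A8 was called in 11 of 12 alternatives; from 1000 UMIs the count was 0, and it was 2 with either library left out. The 8 list genes higher there became 2 from 1000 UMIs, 5 without the leading genes and between 11 and 18 with a library left out, and the 5 lower became 0 from 1000 UMIs, 1 with the larger pseudocount, 9 with no count minimum and between 7 and 13 with a library left out. Leaving a library out lets more genes pass, since a call needs every library; the causes of the other changes were not tested. Small counts limit SLC7A8 in exocrine cells, and SLC7A2 in ductal-like cells and in acinar-like cells of libraries 1 and 4. They also limit PSPH in library 4 and in ductal-like cells, and all values of alpha-like cells. PSAT1 and ASNS in ductal-like cells of library 1 and SHMT2 in acinar-like cells of libraries 1 and 4 are limited too.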

Other observations

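A pair of clusters was left without a cell type name and entered no comparison. The larger held 420 cells, of which 392 came from library 4, and was led by CHGA and INS while also carrying neutrophil markers. In it SLC1A5 had 35.2 and 71.4 CPM in libraries 1 and 4, above the beta-like cells of the same libraries at 0.472 and 0.385 CPM, SLC7A2 had 44.0 and 49.7 CPM against 68.2 and 70.4 CPM, and SLC7A8 had 30.8 and 21.1 CPM against 34.9 and 34.3 CPM.

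The smaller held 148 cells, of which 123 came from library 3, and was led by GCG, SST and GAST together with the cell-cycle genes PRC1 and CKAP2. In it PHGDH had 66.2 and 32.2 CPM in libraries 2 and 3, above all endocrine-like cells of these libraries at 4.25 and 3.36 CPM, and PSAT1 had 42.8 and 17.6 CPM against 8.99 and 2.47 CPM. SLC7A8 had 3.89 and 6.67 CPM there against 50.9 and 34.9 CPM, while SLC7A2 had 128.5 and 74.6 CPM against 103 and 112 CPM. The cluster had only 21 cells in library 2, so that its SLC7A8 level there rests on very few UMIs.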
